A study of Mus musculus with 46 samples.

Results

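Gene expression in 2 organs of untreated wild-type adult mice was compared: the heart and the striatum, a part of the forebrain. The comparison takes the 4 heart libraries and the 4 striatum libraries labelled wild-type and untreated, which are 8 of the 46 libraries of the series; the selection used the labels alone. The series was made to ask how a deletion of 1 nucleotide at the hairless gene, Hr, changes the response to thyroid hormone (TH). The mice of all 8 libraries were raised under standard conditions and carried no mutant allele and no drug. The other 38 libraries came from the same tissues of wild-type or HrDR5/DR5 mice, and they are used only where named. Those mice had no treatment, 15 days of low-iodine food with propylthiouracil (PTU), or PTU followed by 24 hours of TH (PTU+TH). PTU makes mice hypothyroid. The hours of TH are not given for mutant heart replicate 1 of PTU+TH, which was kept in that group. Total RNA, 1 ug per library, was taken from tissue, not from sorted cells, so fewer cells of a type and less RNA per cell cannot be told apart. The heart and the striatum libraries carry separate runs of library names, so that tissue and library set cannot be told apart either, and the account below rests on large differences.

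The heart pumps by cycles of contraction in cardiomyocytes, cells packed with sarcomeres and mitochondria that burn mainly fatty acids. Calcium released from the sarcoplasmic reticulum starts each contraction, and its return ends it. The striatum is the input station of the basal ganglia. Most of its neurons are GABAergic projection neurons that receive glutamate from cortex and thalamus and dopamine from the midbrain, and they are wrapped in a tissue of astrocytes, oligodendrocytes, microglia and barrier-forming vessels. Both organs respond to TH, which acts through the nuclear receptors encoded by Thra and Thrb.

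Levels are given in CPM, the counts of a gene relative to its library total after TMM scaling, which corrects library totals for a few very abundant genes. Differences are log2 fold changes of heart minus striatum, with the standard error (SE) of the fit, from edgeR's quasi-likelihood test over 15016 genes. Genes with an adjusted p (Benjamini-Hochberg) below 0.05 were called, and a called gene was large when the fitted difference was at least 4-fold. Library totals ran from 10.2 to 19.5 M counts. Each library carried the defining markers of its labelled tissue: the 28 sarcomere genes took 11.1, 8.18, 8.09 and 13.8 percent of the counts in the 4 hearts and at most 0.0862 percent in a striatum. The 26 projection neuron genes took 2.19, 1.74, 1.97 and 2.21 percent in the 4 striata and at most 0.0313 percent in a heart. Pearson correlations of log2(CPM + 1) over genes were 0.957 to 0.989 among hearts and 0.986 to 0.992 among striata, and 0.384 to 0.45 between the tissues. Genes are not independent replicates in these correlations.

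The libraries differed first in what filled them. Genes of the mitochondrial genome (mt- genes) took 30.1, 41.9, 41.4 and 17.7 percent of the counts in hearts 1 to 4 and 12.4, 12.8, 13.8 and 11.5 percent in striata 1 to 4. Every heart lay above every striatum, but heart 4 was nearer to the striata than to hearts 2 and 3. The means were 32.8 ± 11.4 and 12.6 ± 0.979 percent (SD, n = 4 each; exact permutation p = 0.0286, two-sided, the smallest that 4 against 4 libraries can give, and 0.0286 after adjustment over the 4 shares tested). The 10 genes with most counts took 36.6 ± 9.82 percent in heart and 13.2 ± 0.963 percent in striatum (the same exact p). Leaving out any 1 striatum raised the exact p of both shares to 0.0571. Outside the mt- genes these shares were 15.7 ± 1.11 and 3.34 ± 0.139 percent. Fewer genes had a count in heart (21085 ± 523) than in striatum (22834 ± 405, with the same exact p). Depth outside the mt- genes was not made equal for this count. Reads aligned to several places made up 30.8 ± 5.17 percent of all reads in heart and 15.5 ± 0.278 percent in striatum; their part in the gene differences was not tested.

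**Figure D1:**
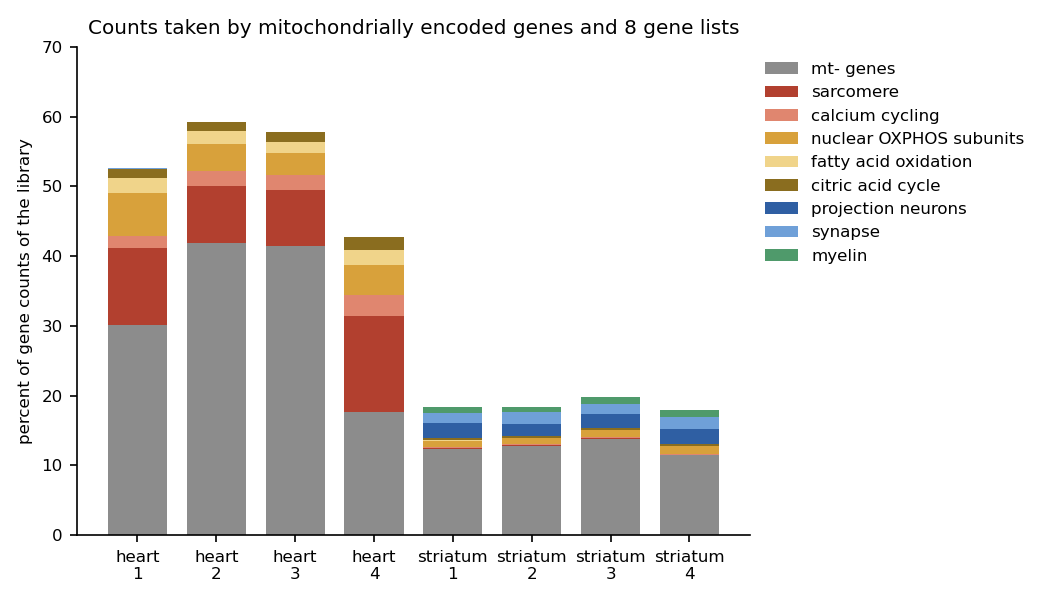
Share of each library's gene counts, in percent, taken by mt- genes and by 8 gene lists. Each bar is 1 library, with hearts on the left and striata on the right. The sarcomere share was 8.09 to 13.8 percent in hearts, and the projection neuron share was 1.74 to 2.21 percent in striata.

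Most genes differed. Of 15016 genes tested, 2503 were large towards heart (16.7 percent of the genes tested) and 3238 were large towards striatum (21.6 percent). These counts are the background for every list below. Without a size limit, 5524 genes were called higher in heart (36.8 percent) and 6115 higher in striatum (40.7 percent). The values of the 4 hearts and the 4 striata did not overlap for 10929 genes (72.8 percent), and the median difference over all genes was -0.10. Scaling by total counts alone moved that median to -0.91, with 1638 large genes towards heart and 4339 towards striatum, so that genes near 0 have no direction of their own here. With the mt- genes left out, 2620 and 3237 genes were large. Of the large genes, 107 of the heart set had no count in any striatum and 514 of the striatum set had none in any heart. These numbers are not at equal depth. A total of 3 counts stood for 0.0766 CPM in the hearts and 0.0502 CPM in the striata, so absence from heart was the weaker limit.

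**Figure D2:**
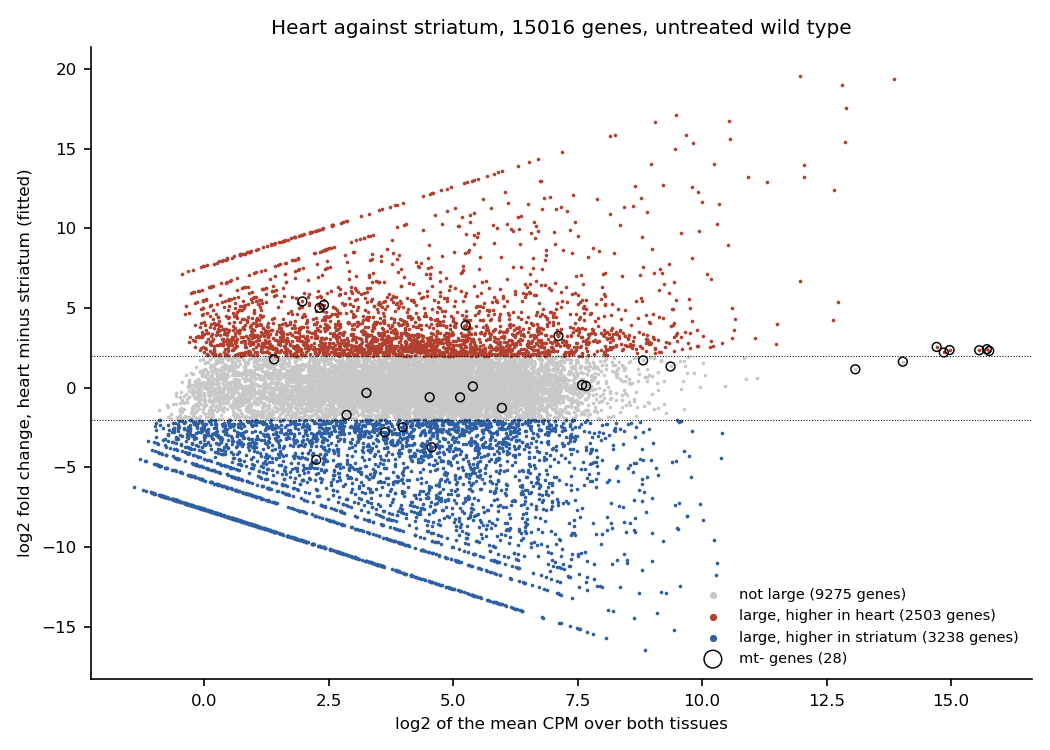
Fitted log2 fold change (heart minus striatum) of each gene tested against the log2 of its mean CPM over both tissues. Red points are the 2503 large genes towards heart, blue points the 3238 towards striatum, and open circles the 28 mt- genes. Dotted lines mark a 4-fold difference. The slanted lines of points at the edges are genes with the same few counts in the lower tissue, whose fitted value depends on the software's prior count.

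The contractile apparatus held the steepest differences in the comparison. Of 28 sarcomere genes, 27 were large towards heart and none towards striatum, with a median log2 difference of 12.80 (12.60 with genes absent from striatum at their lower bound). Myh6 (ENSMUSG00000040752), the main myosin heavy chain of the adult mouse heart, stood at 18053, 25054, 26973 and 47818 CPM in hearts 1 to 4 and had 2 counts in the 4 striata together. Heart 4 was the highest and heart 1 the lowest, and the ratio of the tissues was 912865 (95% interval 252707 to 7537830), an interval that covers counting error only. Myl3, the essential light chain of the ventricle, stood at 11812, 6370.1, 5996 and 7667 CPM in the hearts and had no count in any striatum. It was at least 158727-fold higher in heart, taking 3 counts over the 4 striata as the limit of detection. Actc1, cardiac alpha-actin, stood at 13933, 15649, 15874 and 12143 CPM with 1 count in all striata. Myl2, the regulatory light chain of the ventricle, stood at 14885 ± 4585 CPM in heart and 0.335 ± 0.275 in striatum (log2 difference of 15.40 ± 0.48, adjusted p = 4.08e-11). Tpm1, the main tropomyosin of cardiac muscle, was also made in striatum, at 334, 308, 268 and 349 CPM against 19643, 11275, 10398 and 12038 in the hearts (log2 difference of 5.41 ± 0.23, adjusted p = 1.55e-09). Csrp3 and Lmod2, which organise the Z-disc and the thin filament, had no count in striatum and were at least 28332-fold and at least 21304-fold higher in heart (adjusted p = 5.25e-10 and adjusted p = 1.22e-10). Myom2, of the M-band, had 1 count in striatum and 1629 ± 724 CPM in heart. The gene ENSMUSG00000120364 and Lrtm1 were among the 12 steepest genes too, at 570.2 ± 101 and 606 ± 193 CPM in heart with no count in striatum. Nebl, a nebulin relative of the Z-disc, was the 1 sarcomere gene just under the size limit (log2 difference of 1.98 ± 0.18, adjusted p = 5.98e-07), which it passed without heart 1 (2.14) or striatum 1 (2.03). Per kb of exon, Myh6 stood at 4382 CPM per kb in heart and 0.00477 in striatum and Actc1 at 8899.7 CPM per kb in heart and 0.00957 in striatum, so that Actc1 was the higher of these in heart on that scale.

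The promoters of genes at opposite ends of the comparison are shown because such genes were on in one organ and at or near 0 counts in the other. Each line gives the 150 bases before the annotated start, 5′ to 3′ on the gene's strand, from RefSeq on GRCm38.p6: Actc1 at chr2:114052876-114053025 (minus strand), Myl3 at chr9:110763528-110763677 (plus), Gad2 at chr2:22622177-22622326 (plus) and Syt1 at chr10:109010976-109011125 (minus). Capitals mark a CArG box, the site of serum response factor.
Actc1: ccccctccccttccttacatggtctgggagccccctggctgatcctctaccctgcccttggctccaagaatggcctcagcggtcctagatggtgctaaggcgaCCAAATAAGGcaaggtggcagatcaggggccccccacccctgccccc
Myl3: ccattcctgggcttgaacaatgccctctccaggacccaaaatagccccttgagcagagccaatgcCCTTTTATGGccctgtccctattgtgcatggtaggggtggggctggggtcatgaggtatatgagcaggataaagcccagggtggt
Gad2: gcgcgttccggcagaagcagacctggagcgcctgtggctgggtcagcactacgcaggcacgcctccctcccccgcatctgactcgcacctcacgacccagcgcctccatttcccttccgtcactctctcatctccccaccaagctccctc
Syt1: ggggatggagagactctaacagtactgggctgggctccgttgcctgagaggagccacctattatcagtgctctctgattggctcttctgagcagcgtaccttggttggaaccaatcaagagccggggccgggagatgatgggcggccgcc
The CArG box, searched on both strands, was found at -47 to -38 of Actc1 and at -85 to -76 of Myl3, counted from the start. It is present in 0.884 percent of 27025 windows of this length (239 windows). The Gad2 window held 11 CpG dinucleotides and the Syt1 window 6, against 2 and 0 for Actc1 and Myl3 and a median of 4 over all windows. A match describes these letters and does not show binding. The genes shown were picked singly and not by a rule from the many at each end. Their matches and CpG counts thus do not describe the heart or the striatum set. Shares over the large genes were not compared, since 69.8 percent of the heart set and 70.1 percent of the striatum set had a window in the table, under the 80 percent required.

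Genes that move calcium in the cardiomyocyte were mostly large towards heart: 11 of 16, with 2 towards striatum and a median of 4.22. Pln, the brake of the calcium pump, stood at 8532, 11112, 8402 and 5656 CPM in the hearts and 0.876, 1.2, 0.581 and 0.805 in the striata (log2 difference of 13.23 ± 0.30, adjusted p = 2.11e-11). Hrc, a calcium-binding protein of the sarcoplasmic reticulum, differed almost as much (log2 difference of 12.26 ± 0.35, adjusted p = 2.11e-11). The pump itself, Atp2a2, and the release channel Ryr2 are used by neurons as well. Atp2a2 stood at 12043 ± 4171 CPM in heart and 639.8 ± 66.8 in striatum (log2 difference of 4.23 ± 0.27, adjusted p = 3.43e-08), and Ryr2 at 1683 ± 789 and 91.4 ± 25.9 (log2 difference of 4.20 ± 0.34, adjusted p = 4.29e-07). The L-type channel genes were not large: Cacna1c gave a log2 difference of 1.56 ± 0.25, adjusted p = 0.000101, Cacna2d1 a log2 difference of 0.95 ± 0.17, adjusted p = 0.0002 and Cacnb2 a log2 difference of 0.09 ± 0.19, adjusted p = 0.661. Jsrp1, a junctional protein of sarcoplasmic reticulum, was large towards striatum (log2 difference of -4.38 ± 0.56, adjusted p = 9.69e-07) at only 4.46 ± 1.27 CPM there.

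Transcription factors were read in lists for each organ. Of 17 factors of cardiac muscle, 11 were large towards heart, and of 24 factors of striatal and forebrain cells, 22 were large towards striatum. Gata4 and Hand2, which build the heart in the embryo, stood at 102, 91.7, 106 and 109 and 98, 87, 72.7 and 104 CPM in the hearts and had no count in any striatum (at least 2035-fold and at least 1804-fold higher in heart). Tbx20 had 2 counts in the striata and 85.7 ± 7.13 CPM in heart, and Prox1 was present in both at 84.3 ± 29.7 and 15.1 ± 1.3 CPM (log2 difference of 2.49 ± 0.23, adjusted p = 7.77e-07, or 1.69 and not large with total-count scaling). The MEF2 family crossed the division. Mef2a stood at 216 ± 40.6 CPM in heart and 220.3 ± 10.1 in striatum (log2 difference of -0.03 ± 0.17, adjusted p = 0.894), and Mef2d at 164 ± 34.5 and 169 ± 18.3 (log2 difference of -0.04 ± 0.18, adjusted p = 0.832), while Mef2c was called higher in striatum (log2 difference of -0.99 ± 0.17, adjusted p = 0.000151). Srf, which encodes serum response factor, was called higher in heart (log2 difference of 1.30 ± 0.21, adjusted p = 9.8e-05). Among the striatal factors, Bcl11b, required for projection neurons to mature, stood at 336, 286, 309 and 321 CPM in striata 1 to 4 and 2.15, 1.37, 2.04 and 2.7 in the hearts (log2 difference of -7.22 ± 0.20, adjusted p = 2.7e-11). Foxp1 and Meis2 were present in heart too, at 28.9 ± 6.69 and 38.8 ± 4.99 CPM, and were higher in striatum (log2 difference of -3.83 ± 0.18, adjusted p = 1.63e-09 for Foxp1 and log2 difference of -3.83 ± 0.16, adjusted p = 4.97e-10 for Meis2). Myt1l, a neuronal factor, differed most among the 4 striatal factors with the highest level (log2 difference of -11.99 ± 0.56, adjusted p = 1.91e-11). Ebf1 did not pass the test (31.1 ± 5.96 CPM in heart and 27.3 ± 2.59 in striatum, adjusted p = 0.327), and Lhx6, of interneurons, lay just under the size limit (log2 difference of -1.95 ± 0.28), which it passed without heart 2 (-2.26) or striatum 1 (-2.06).

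Energy metabolism was the broadest block of genes higher in heart. For the uptake and oxidation of fatty acids, 27 of 28 genes were large towards heart, with a median of 5.40. Of the 17 genes of pyruvate dehydrogenase and the citric acid cycle all 17 were large (median 3.20), and of the 78 nuclear genes for subunits of oxidative phosphorylation 71 were (median 2.91). No member of these lists was large towards striatum. With total-count scaling 46 of the respiratory genes were large. The fatty acid genes thus lay further from the median of all genes than the respiratory chain did. Lpl, the lipase that frees fatty acids from lipoproteins, stood at 9773, 8459.5, 6147 and 7456 CPM in the hearts and 78.5, 53.8, 88.9 and 84.3 in the striata (log2 difference of 6.70 ± 0.22, adjusted p = 2.06e-10). Cd36, a fatty acid translocase of cardiomyocytes and capillaries, stood at 1790.4 ± 366 CPM in heart and 0.28 ± 0.10 in striatum (log2 difference of 12.57 ± 0.35, adjusted p = 1.91e-11). Hadha, of mitochondrial beta-oxidation, stood at 1678 ± 341 and 53 ± 5.01 CPM (log2 difference of 4.98 ± 0.19, adjusted p = 3.64e-10). Ppargc1a, a coactivator of mitochondrial genes, was the fatty acid list's member under the size limit (log2 difference of 1.72 ± 0.25, adjusted p = 4.17e-05). In the citric acid cycle, Idh2 gave a log2 difference of 6.82 ± 0.18, adjusted p = 4.19e-11, Ogdh a log2 difference of 3.61 ± 0.23, adjusted p = 3.18e-08 and Mdh2 a log2 difference of 3.22 ± 0.16, adjusted p = 2.47e-09. In the respiratory chain, the ATP synthase subunits Atp5a1 and Atp5b gave a log2 difference of 3.14 ± 0.17, adjusted p = 5.31e-09 and a log2 difference of 2.76 ± 0.18, adjusted p = 2.59e-08 (1.96 for Atp5b with total-count scaling, not large). Cox4i1 stood at 3333, 1657, 1599 and 1553 CPM in hearts 1 to 4, with heart 1 about as far above the others as they were above 0, and at 337 ± 41 in striatum (log2 difference of 2.59 ± 0.25, adjusted p = 1.17e-06, or 1.78 and not large with total-count scaling).

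Respiratory chain genes of mitochondrial DNA were also higher in heart. Of 11 such genes tested, 9 were large towards heart (median 2.36), or 3 with total-count scaling, and mt-Nd4l and mt-Atp8 had too few counts for the test. mt-Co1 stood at 51957, 132131, 138968 and 48416 CPM in hearts 1 to 4 and at 18169.5, 19701, 20361 and 16777 in striata 1 to 4. Heart 4 was the lowest heart and still lay above every striatum (log2 difference of 2.31 ± 0.35, adjusted p = 7.57e-05). mt-Cytb gave a log2 difference of 2.42 ± 0.35, adjusted p = 4.28e-05 and mt-Nd4 a log2 difference of 2.56 ± 0.34, adjusted p = 2.48e-05, while the ribosomal RNA gene mt-Rnr2 was under the size limit (log2 difference of 1.64 ± 0.27, adjusted p = 0.000113). With total-count scaling the log2 difference of mt-Co1 was 1.43 and no longer large.

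Glycolysis was mixed, with 6 of 19 genes large towards heart and 2, Eno2 and Aldoc, towards striatum (median 1.27). Without a size limit, 13 were called higher in heart and 5 higher in striatum, against 36.8 and 40.7 percent of all genes tested. Total-count scaling gave 3 and 4 large genes. The rate-setting Pfkm was higher in heart (log2 difference of 2.57 ± 0.19, adjusted p = 6.98e-08), as was Ldhb, the lactate dehydrogenase subunit of oxidative tissues (log2 difference of 2.41 ± 0.17, adjusted p = 5.32e-08); neither was large with total-count scaling (1.79 and 1.61). Gapdh stood at 623 ± 192 CPM in heart and 169.5 ± 35.7 in striatum (log2 difference of 1.88 ± 0.23, adjusted p = 9.08e-06), and Pkm at 636 ± 129 and 389.7 ± 54.7 (log2 difference of 0.71 ± 0.19, adjusted p = 0.0038), both under the size limit, which Gapdh passed without heart 4 (2.05). For ketone use, Oxct1 and Acat1 were large towards heart (log2 difference of 2.59 ± 0.16, adjusted p = 1.17e-08 and log2 difference of 3.31 ± 0.17, adjusted p = 2.28e-09). With total-count scaling Oxct1 was no longer large (1.79), and 3 in place of 5 of the 10 genes of ketone use and creatine phosphate were large towards heart. For creatine, the organs used different members of a family. Ckm, the muscle creatine kinase, stood at 3568, 2544, 3206 and 2746 CPM in the hearts and had 3 counts in the striata, while Ckb, the brain form, stood at 983, 826, 933 and 1124 CPM in the striata and 61.3, 34.5, 38 and 35.7 in the hearts (log2 difference of -4.51 ± 0.21, adjusted p = 1.8e-09). Gatm, which makes the precursor of creatine, was large towards striatum (log2 difference of -5.35 ± 0.26, adjusted p = 1.26e-09), and the creatine transporter gene Slc6a8 was called higher in heart but lay just under the size limit (log2 difference of 1.96 ± 0.17), which it passed without heart 1 (2.04) or heart 2 (2.07).

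This exchange of family members was followed through 30 pairs, each a form known from muscle and a form known from brain. The log2 ratio of the muscle form to the brain form, taken within a library and so free of library scaling, was higher in all 4 hearts than in all 4 striata for each of the 30 pairs (exact permutation p = 0.0286 for each, two-sided, and 0.0286 after adjustment over the 30). The pairs were chosen as muscle and brain forms, with earlier results of these data known. Neither their count nor its direction is independent of that choice. Per exon length, 27 pairs had the muscle form on average higher in heart and the brain form higher in striatum, and 3, Slc25a4/Slc25a5, Aldoa/Aldoc and Fabp3/Fabp7, had the muscle form higher in both. In 14 pairs both members were large, in opposite directions. In 8 pairs the muscle form was large towards heart but the brain form was not large towards striatum. Among these 8, both members were large towards heart for cytochrome c oxidase subunit 7A (11.00 and 2.56) and glycogen phosphorylase (6.65 and 3.03). In 5 pairs only the brain form was large, towards striatum. Ckmt2/Ckmt1, the mitochondrial creatine kinases, gave log2 ratios of 14.27, 14.38, 13.78 and 14.31 in hearts 1 to 4 and -10.73, -10.89, -9.12 and -11.29 in striata 1 to 4. Eno3/Eno2, the enolases of muscle and neurons, gave 12.93, 11.78, 12.33 and 11.98 and -6.48, -6.31, -6.51 and -7.01. Cox6a2/Cox6a1, subunits of cytochrome c oxidase, turned round by the muscle form alone, since Cox6a2 gave a log2 difference of 8.95 ± 0.28 and Cox6a1 a log2 difference of -0.84 ± 0.29, whose call was lost without heart 2, 3 or 4 (adjusted p = 0.0547 to 0.0605). Rpl3l/Rpl3 gave 3.04, 2.95, 3.48 and 4.28 and -6.93, -6.74, -6.75 and -8.12; Rpl3l replaces Rpl3 in the ribosomes of striated muscle. Camk2d/Camk2a, of calmodulin kinase II, stood near 1 to 1 per length in heart (0.48, 0.02, -0.05 and -0.11) and far to the neuronal form in striatum (-7.40, -7.08, -7.38 and -7.49). The narrowest shift was in Map4/Mapt, the pair whose exact p rose to 0.0571 when any 1 striatum was left out, with -0.11, 0.80, 1.13 and 0.84 in the hearts and -0.85, -1.01, -1.18 and -0.92 in the striata.

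**Figure D3:**
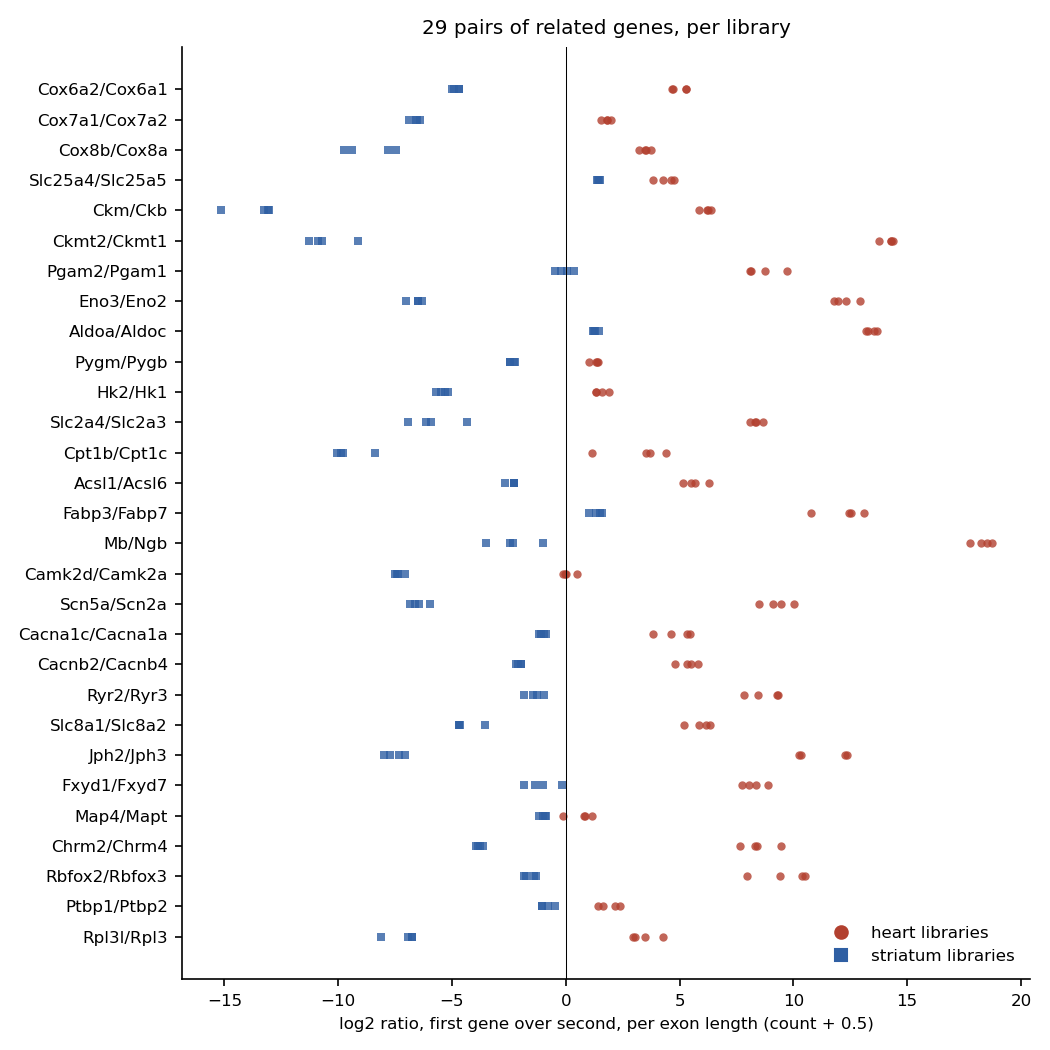
Log2 ratio of the muscle form to the brain form in 29 of the pairs of related genes, per exon length, with 0.5 added to each count. Red circles are the 4 hearts and blue squares the 4 striata. In each pair drawn all hearts lie to the right of all striata, and 0 marks equal levels per length.

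In the striatum, neurons set the top of the list. Of 26 genes of projection neurons 25 were large towards striatum (median -9.19), of 11 interneuron genes all 11 (median -8.54, or -6.48 with bounds), of 22 synapse genes all 22 (median -7.14) and of 23 genes of glutamate and GABA transmission 22 (median -10.92). Ppp1r1b encodes DARPP-32, the integrator of dopamine signals in projection neurons. It stood at 1546, 1270.2, 1484 and 1754 CPM in striata 1 to 4 and 0.632, 0.137, 0.151 and 0.186 in hearts 1 to 4 (log2 difference of -12.46 ± 0.45, adjusted p = 2.11e-11). Pde10a, the phosphodiesterase of the same cells, stood at 1713, 1277, 1428 and 1391 and 1.9, 4.54, 4.07 and 2.05 CPM (log2 difference of -8.85 ± 0.27, adjusted p = 8.51e-11). Penk, of the indirect pathway, gave 1662 ± 237 CPM in striatum and 6.19 ± 2.54 in heart (log2 difference of -8.04 ± 0.26, adjusted p = 1.8e-10). The dopamine receptors Drd1 and Drd2 mark the direct and the indirect pathway. Drd1 stood at 226, 195, 189 and 219 CPM in the striata with 5 counts in all hearts, and Drd2 at 244, 213, 249 and 291 CPM in the striata and 5.31, 5.77, 1.81 and 3.08 in the hearts (log2 difference of -6.01 ± 0.29, adjusted p = 2.3e-09). Adora2a, the adenosine receptor paired with Drd2, gave a log2 difference of -4.55 ± 0.20, adjusted p = 7.43e-10. Strip2 was the projection neuron gene that did not pass the test, at 104 ± 7.72 CPM in heart and 128 ± 18.6 in striatum (adjusted p = 0.0909).

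Syt1 and Gad2, whose promoters are printed above, encode the calcium sensor of vesicle release and a GABA-making enzyme. Syt1 stood at 811, 1099.5, 787 and 1019 CPM in the striata and Gad2 at 370.5, 350.3, 355 and 394 CPM, and neither had a count in any heart (at least 12134-fold and at least 4799.5-fold lower in heart). Snap25, of the vesicle fusion complex, had 1 count in the hearts and 1383 ± 202 CPM in striatum. The glutamate receptor genes Grin2b and Grm5 had no heart count (at least 5874-fold and at least 4866-fold lower in heart), and Gria2 had 1 against 799 ± 70.3 CPM in striatum. Among synapse genes with some reads in heart, Cplx2 gave a log2 difference of -8.08 ± 0.19, adjusted p = 2.11e-11, Nrgn a log2 difference of -7.22 ± 0.37, adjusted p = 1.17e-08 and Camk2a a log2 difference of -4.59 ± 0.21, adjusted p = 1.65e-09. The potassium channel gene Kcnq3, of the M-current of neurons, had no heart count and stood at 358 ± 35.6 CPM in striatum. The interneuron peptides Sst and Npy stood at 107, 133, 122 and 138 and 62.2, 76.6, 79 and 78.7 CPM in the striata with no heart count (at least 1632-fold and at least 968-fold lower). Kif5a, a motor of axonal transport, and Ppp3ca, the catalytic subunit of calcineurin, were the nuclear genes among the 10 with most counts in striatum, at 2525 ± 234 and 2562 ± 339.5 CPM (log2 difference of -11.02 ± 0.37, adjusted p = 1.44e-10 and log2 difference of -4.42 ± 0.23, adjusted p = 5.61e-09).

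Glia added to the striatal side, with exceptions among astrocyte genes. All 14 of 14 myelin genes were large towards striatum (median -10.19, or -9.09 with bounds). Mbp, a structural protein of myelin, stood at 2227, 2066, 2848 and 2517 CPM in the striata and 4.3, 2.2, 2.94 and 3.08 in the hearts (log2 difference of -9.59 ± 0.22, adjusted p = 2.11e-11). Mobp had 2 counts in the hearts. Of 15 astrocyte genes 11 were large towards striatum and 1, Gja1, towards heart. The glutamate transporters led, Slc1a2 with a log2 difference of -11.75 ± 0.24, adjusted p = 1.84e-11 and Slc1a3 with a log2 difference of -7.68 ± 0.22, adjusted p = 2.69e-11. Gja1, connexin 43, joins cardiomyocytes as well as astrocytes. It stood at 369, 368, 483 and 480 CPM in the hearts and 98.1, 88.1, 90.9 and 108 in the striata (log2 difference of 2.14 ± 0.16, adjusted p = 1.06e-07). With total-count scaling Gja1 was no longer large (1.34), nor was it when the test itself was set against 4-fold (glmTreat, adjusted p = 0.214). Ndrg2 (log2 difference of 1.92 ± 0.16, adjusted p = 2.23e-07) was also called higher in heart, under the size limit, which it passed without striatum 4 (2.03), and Glul, glutamine synthetase, was called higher in striatum (log2 difference of -0.94 ± 0.19, adjusted p = 0.000541).

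Markers of macrophages and vessels divided by subtype, and those of connective tissue were higher in heart. All 8 genes of macrophages outside the brain parenchyma were large towards heart (median 5.59), 6 of 8 microglial genes were large towards striatum (median -3.13), and none of 10 general macrophage genes was large (median 0.35). Mrc1, the mannose receptor, stood at 31.8 ± 3.33 CPM in heart and 2.0 ± 0.287 in striatum (log2 difference of 3.98 ± 0.18, adjusted p = 4.56e-10), and F13a1 at 40.1 ± 3.78 and 0.804 ± 0.148 (log2 difference of 5.62 ± 0.21, adjusted p = 5.44e-11). P2ry12, the purinergic receptor of microglia, stood at 2.1 ± 0.712 and 40.7 ± 2.82 (log2 difference of -4.28 ± 0.23, adjusted p = 2.37e-09), and Cx3cr1 at 3.99 ± 0.638 and 47.4 ± 6.46 (log2 difference of -3.56 ± 0.18, adjusted p = 1.65e-09). Csf1r, the growth factor receptor of both, was close, at 34 ± 1.49 and 55.7 ± 5.15 CPM (log2 difference of -0.71 ± 0.14, adjusted p = 0.000417). The complement genes C1qa and C1qb did not pass the test (adjusted p = 0.166 and adjusted p = 0.0741), though C1qb did without heart 4 (adjusted p = 0.0168). The gene of the third C1q chain was called higher in heart (log2 difference of 0.69 ± 0.23, adjusted p = 0.0162). It stood at 57.1, 30.0, 29.1 and 26.7 CPM in the hearts and 22.9, 20.4, 19.9 and 25.2 in the striata. All 12 genes of antigen presentation tested were large towards heart (median 3.49): Cd74, the invariant chain, gave a log2 difference of 6.85 ± 0.19, adjusted p = 2.19e-11 and B2m a log2 difference of 2.86 ± 0.28, adjusted p = 1.51e-06. H2-K1 and H2-D1, whose sequences are close enough to share reads, gave a log2 difference of 3.59 ± 0.23 and a log2 difference of 3.40 ± 0.18.

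General endothelial genes were higher in heart, 10 of 11 of them large (median 3.08). Pecam1 stood at 142, 196, 256 and 203 CPM in the hearts and 17.1, 17.2, 20.5 and 20.3 in the striata (log2 difference of 3.41 ± 0.19, adjusted p = 5.74e-09), Cdh5 gave a log2 difference of 4.06 ± 0.25, adjusted p = 2.49e-08, and Flt1 was under the size limit (log2 difference of 1.14 ± 0.18, adjusted p = 7.03e-05). Genes of the blood-brain barrier went the other way in 8 of 13 cases, none large towards heart (median -3.03). The transporter gene Slco1a4 stood at 43.6 ± 3.79 CPM in striatum and 0.447 ± 0.448 in heart (log2 difference of -6.69 ± 0.43, adjusted p = 1.39e-09). Abcg2, a drug exporter listed with the barrier, was called higher in heart (log2 difference of 1.34 ± 0.15, adjusted p = 3.86e-06), and Abcb1a did not pass the test (adjusted p = 0.0781), although it did without heart 3 (adjusted p = 0.0486). Genes of cardiac capillaries, which take up fatty acids, were large in 7 of 9 cases (median 9.27). Fabp4 stood at 1392, 826, 587 and 702 CPM in the hearts and 0.135, 0.531, 0 and 0.186 in the striata (log2 difference of 11.92 ± 0.63, adjusted p = 4.62e-10), Aqp1 at 338 ± 21.6 and 0.0669 ± 0.0773 (log2 difference of 12.10 ± 0.68, adjusted p = 2.56e-11), and Gpihbp1, the anchor of Lpl on capillaries, had no count in striatum (at least 1702-fold higher in heart). Of 10 mural cell genes 8 were large towards heart (4 with total-count scaling and 5 with glmTreat), among them Rgs5 (log2 difference of 2.68 ± 0.17, adjusted p = 1.5e-08) and Acta2 (log2 difference of 3.70 ± 0.21, adjusted p = 7.94e-09), while Vtn did not pass the test (adjusted p = 0.13). Of 14 fibroblast and matrix genes 13 were large towards heart (median 4.84), led in level by Gsn (1081 ± 161 and 48.9 ± 4.98 CPM, log2 difference of 4.47 ± 0.17, adjusted p = 2.9e-10) and Dcn (670.0 ± 205 and 5.1 ± 0.648 CPM, log2 difference of 7.03 ± 0.24, adjusted p = 2.03e-10). Pdgfra, shared by fibroblasts and oligodendrocyte precursors, did not pass the test (38.1 ± 9.33 and 40.1 ± 2.56 CPM, adjusted p = 0.742).

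**Figure D4:**
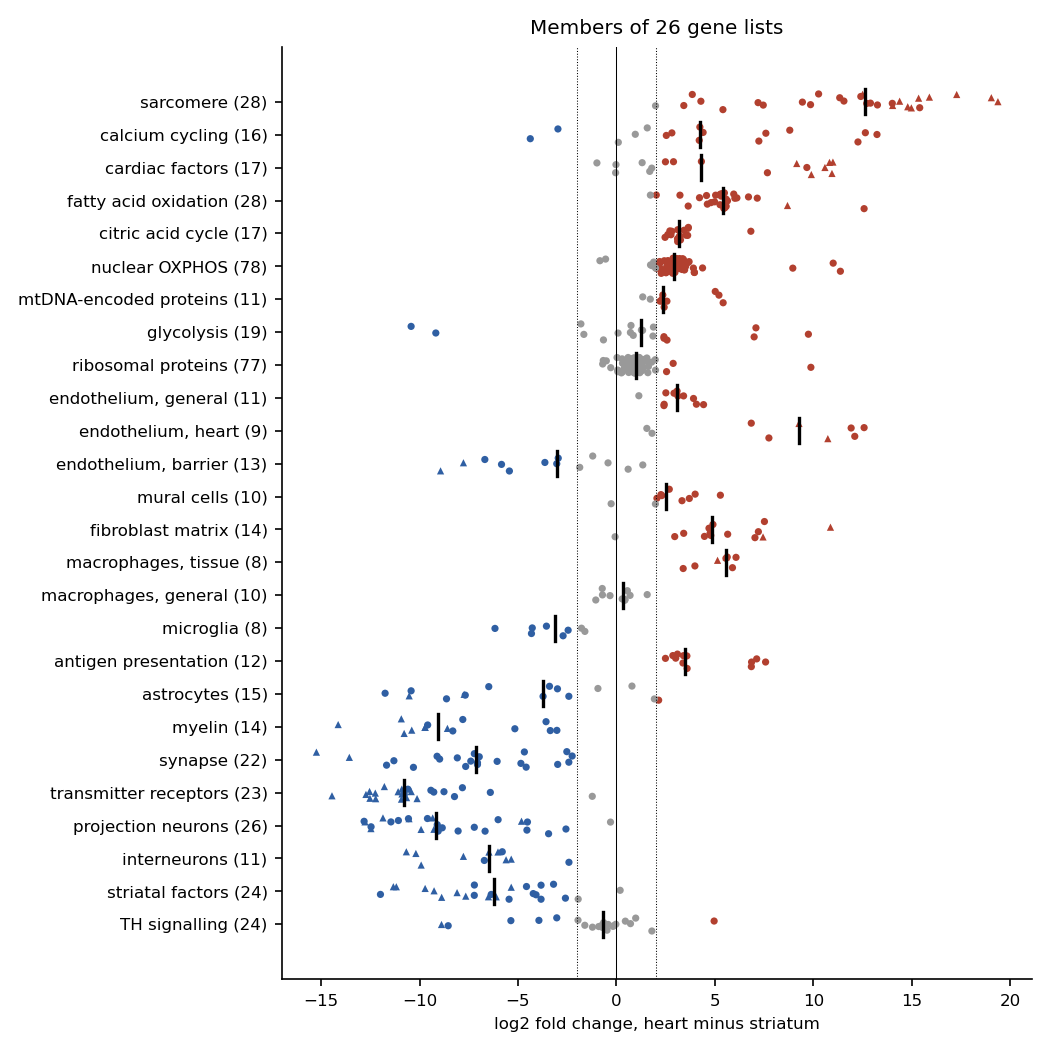
Log2 fold change (heart minus striatum) of the members of 26 gene lists, with the number tested in brackets. Red and blue points are large towards heart and striatum, grey points are not large, triangles had 3 counts or fewer in 1 tissue, and black bars are medians. Genes with no count in 1 tissue are drawn at their bound. Muscle and metabolic lists lie to the right and neuronal and myelin lists to the left, with the medians of general macrophage, ribosomal and TH signalling genes (0.35, 1.00 and -0.69) inside the 4-fold lines.

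Thyroid hormone signalling, the subject of the series, had no large gene among its receptors in the untreated wild type. Large genes were found in transport and conversion. Of 24 genes tested, 1 was large towards heart and 5 were large towards striatum (median -0.69), against 16.7 and 21.6 percent of all genes tested. With total-count scaling 8 were large towards striatum. Slco1c1 and Slc7a5 are also counted among the blood-brain barrier genes above. Thra stood at 354, 396, 381 and 457 CPM in striata 1 to 4 and 105, 75.2, 93.5 and 136 in hearts 1 to 4. Every striatum lay above every heart (log2 difference of -1.95 ± 0.19, adjusted p = 1.09e-06), just under the size limit, which it passed without heart 4 (-2.09) or striatum 1 (-2.02). In the fit of all 46 libraries, wild-type mice gave -1.97 without treatment, -1.80 with PTU and -2.45 with PTU+TH for Thra. Mutant mice gave -1.97, -2.66 and -3.03 in the same order. Thra thus passed the size limit with PTU+TH in both genotypes and with PTU in mutants. Differences between these values were not tested. Thra shares bases with Nr1d1 on the opposite strand, and without a stated strand setting their reads cannot be told apart. Thrb stood at 51 ± 1.99 CPM in striatum and 27.3 ± 3.82 in heart (log2 difference of -0.90 ± 0.15, adjusted p = 0.000103). Per kb of exon, Thra stood at 22.2 CPM per kb in heart and 86 in striatum and Thrb at 3.68 CPM per kb in heart and 6.89 in striatum, so Thra was the higher receptor gene in both organs on this scale. Of their partners, Rxra was called higher in heart (log2 difference of 1.80 ± 0.24, adjusted p = 1.55e-05) and Rxrg higher in striatum (log2 difference of -0.73 ± 0.15, adjusted p = 0.000583), and Rxrb did not pass the test (adjusted p = 0.402).

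Dio2, the deiodinase that makes active T3 from T4, stood at 81.1, 93, 60.5 and 90 CPM in the striata and 2.4, 1.24, 2.49 and 1.58 in the hearts (log2 difference of -5.36 ± 0.24, adjusted p = 5.61e-10). Dio1 had no count in any of the 8 libraries, and Dio3, which inactivates TH, had 75 counts in the striata and none in the hearts, too few for the test. The transporter genes divided. Slco1c1, the T4 carrier of brain capillaries and astrocytes, stood at 28.6, 30.2, 29 and 32.5 CPM in the striata with 2 counts in the hearts, and Slc7a8 and Slc7a5 were large towards striatum (log2 difference of -3.94 ± 0.20, adjusted p = 1.93e-09 and log2 difference of -3.03 ± 0.22, adjusted p = 4.59e-08). Slc16a10, encoding MCT10, stood at 22.6, 22.7, 22.7 and 18.5 CPM in the hearts and 0.539, 0.863, 0.653 and 0.682 in the striata (log2 difference of 4.96 ± 0.22, adjusted p = 2.85e-10), the 1 large member towards heart. Crym, a T3-binding protein of the cytosol, stood at 71 ± 15.4 CPM in striatum and 0.188 ± 0.217 in heart (log2 difference of -8.55 ± 0.69, adjusted p = 1.52e-09).

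Hr (ENSMUSG00000022096), a corepressor that binds TH receptors and is itself induced by TH, stood at 21.9, 21.7, 20.6 and 20.9 CPM in hearts 1 to 4 and 10.4, 13, 28.6 and 10.3 in striata 1 to 4. The hearts were close together, and striatum 3 lay above all hearts while the other striata lay below them (log2 difference of 0.45 ± 0.29, adjusted p = 0.171). Without striatum 3, Hr was called higher in heart (log2 difference of 0.90, adjusted p = 0.000618). In wild-type mice, in the fit of all 46 libraries, its log2 difference was 0.44 ± 0.35 without treatment, -1.57 ± 0.41 with PTU and 2.00 ± 0.34 with PTU+TH. In mutant mice it was 0.15 ± 0.42 without treatment, -1.80 ± 0.47 with PTU and 0.61 ± 0.35 with PTU+TH. Differences between these values were not tested here. Dio2 by contrast lay between -5.80 and -4.64 in all 6 pairs of groups. Among the general corepressors and coactivators, Ncoa3 (adjusted p = 0.915) and Med1 (adjusted p = 0.544) did not pass the test. Ncor1 was called higher in striatum (log2 difference of -0.42 ± 0.18, adjusted p = 0.0467), a call lost without heart 1, 2 or 4 or any 1 striatum (adjusted p = 0.0647 to 0.134). Ncoa1 was called higher in striatum (log2 difference of -1.61 ± 0.18, adjusted p = 4.22e-06) and was large with total-count scaling (-2.42). Klf9, a target of TH in brain, was called higher in striatum with overlapping libraries (log2 difference of -0.74 ± 0.28, adjusted p = 0.030), a call lost without heart 3, heart 4, striatum 3 or striatum 4 (adjusted p = 0.0506 to 0.0921).

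**Figure D5:**
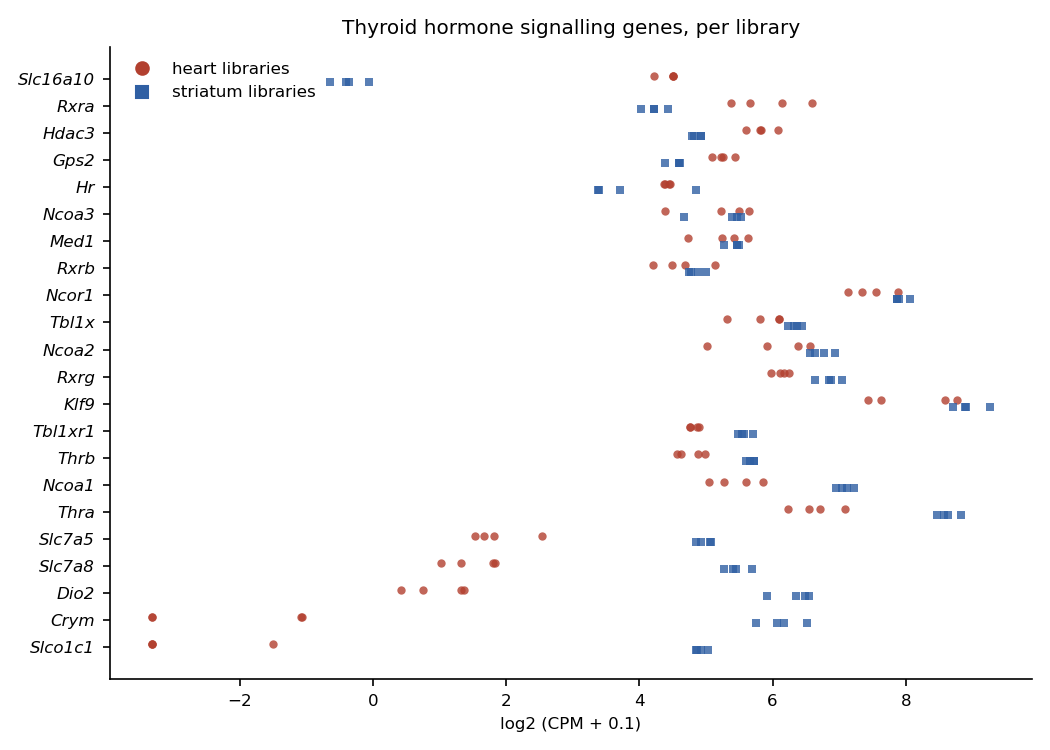
Level of 22 thyroid hormone signalling genes in each library, as log2(CPM + 0.1), ordered by their log2 difference. Red circles are hearts and blue squares striata. Slc16a10 is separated to the right in hearts; Slco1c1, Crym, Dio2, Slc7a8 and Slc7a5 are separated in striata, and most other members lie within 4-fold.

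Regulators shared by excitable cells showed which members each organ used. Of 24 RNA-binding regulators of splicing, 13 were large towards striatum and 2 towards heart (Rbm20 and Rbm24). Celf4 gave a log2 difference of -9.17 ± 0.39, adjusted p = 3.58e-10 and Elavl3 a log2 difference of -11.39 ± 0.69, adjusted p = 3.49e-11, while Mbnl1 (log2 difference of 0.74 ± 0.18, adjusted p = 0.00206) and Qki (log2 difference of 0.70 ± 0.16, adjusted p = 0.00124) were called higher in heart under the size limit. Of 20 receptors for amines and adenosine and adenylyl cyclases, 13 were large towards striatum and 4 towards heart; 5 of them are also projection neuron genes. Among the cyclases, Adcy5 stood at 86.3 ± 26.3 CPM in heart and 943 ± 93.6 in striatum (log2 difference of -3.45 ± 0.21, adjusted p = 2.11e-08). Adcy6 went the other way, at 143 ± 44.3 and 10.5 ± 2.33 (log2 difference of 3.76 ± 0.23, adjusted p = 2.04e-08). Another cyclase gene of the list was called higher in striatum under the size limit (log2 difference of -1.26 ± 0.47, adjusted p = 0.0261). Adra1b, an alpha-1 adrenergic receptor, and Chrm2, the muscarinic receptor that slows the heart, were large towards heart (log2 difference of 3.96 ± 0.22, adjusted p = 4.03e-09 and log2 difference of 3.61 ± 0.20, adjusted p = 5.43e-09). Of 22 potassium channel genes 10 were large towards striatum and 5 towards heart, among these Kcnk3 (log2 difference of 5.34 ± 0.18, adjusted p = 1.21e-10) and Kcnj11 (log2 difference of 2.55 ± 0.15, adjusted p = 1.05e-08), the pore of the ATP-sensitive channel, which was not large with total-count scaling (1.76). Kcnip2, a subunit of transient outward channels, did not pass the test (189 ± 31.8 and 171 ± 17.8 CPM, adjusted p = 0.463).

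Of 15 imprinted genes 9 were large towards striatum and 2, H19 and Cdkn1c, towards heart. Meg3, a long noncoding RNA, stood at 2446, 2411, 2423 and 598 CPM in striata 1 to 4, with striatum 4 far below the others, and 20.5, 15.1, 7.39 and 7.45 in the hearts (log2 difference of -7.30 ± 0.43, adjusted p = 6.09e-08). Peg3 gave a log2 difference of -5.07 ± 0.22, adjusted p = 1.06e-09. Of 17 immediate early genes 8 were large towards striatum and 2, Atf3 (log2 difference of 4.69 ± 0.44, adjusted p = 2.77e-07) and Ier2 (log2 difference of 2.61 ± 0.25, adjusted p = 6.22e-07), towards heart. The heart count was 1 with total-count scaling and 4 without hearts 1 and 4 together. Egr1 stood at 286, 392, 391 and 451 CPM in the striata and 9.86, 9.9, 78.5 and 13.1 in the hearts, where heart 3 lay above the others (log2 difference of -3.75 ± 0.56, adjusted p = 9.68e-05), and Arc gave a log2 difference of -5.37 ± 0.30, adjusted p = 5.57e-09. Of 15 clock genes 2, Npas2 and Hlf, were large towards striatum and none towards heart, against 21.6 and 16.7 percent of all genes tested. With total-count scaling 4 were large towards striatum, where 4339 of all 15016 genes were. These counts were not tested against those shares and are not read as a trait of the list. Dbp and Nr1d1 did not pass the test (adjusted p = 0.947 and adjusted p = 0.812). Of 77 ribosomal protein genes 3 were large towards heart (Rpl3l, Rplp0 and Rps2), 5 without heart 3 and 6 without heart 4, and their median was 1.00. Total-count scaling moves the median of all genes by -0.81, most of that distance, so a common direction of these genes depends on the scaling.

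Some abundant genes lay close to each other in the organs. Among 23 genes with at least 500 CPM in both organs, Sptbn1, a spectrin, came closest to equal at 1010.5 ± 426 CPM in heart and 991 ± 64.6 in striatum (log2 difference of 0.03 ± 0.28, adjusted p = 0.929). Cst3 (log2 difference of -0.08 ± 0.25, adjusted p = 0.767), the long noncoding RNA Malat1 (log2 difference of 0.11 ± 0.48, adjusted p = 0.845) and Aplp2 (log2 difference of -0.12 ± 0.20, adjusted p = 0.592) followed; Cst3 was called higher in striatum without heart 1 (adjusted p = 0.0354). A p above the threshold does not show that these levels are the same, and their sign changed with the scaling.

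Markers of tissue that a dissection could carry along were read in the same libraries. In the hearts, the atrial genes Myl7, Sln and Bmp10 had 31, 0 and 2 counts over all 4 libraries. Nppa stood at 386, 184, 168 and 126 CPM, and Gja5 at 6.22 ± 1.36 CPM. The skeletal muscle myosins Myh1, Myh2 and Myh4 had 38, 27 and 14 counts. Acta1, which is shared with the heart, stood at 219.7, 208, 1291 and 326 CPM, highest in heart 3. Haemoglobin genes, whose near-identical copies share reads, took 0.185 ± 0.0799 percent of the counts in heart and 0.0101 ± 0.00137 in striatum (exact permutation p = 0.0286, two-sided, or 0.0571 without any 1 striatum). Epicardial genes were low, with Wt1 at 6.1 ± 1.5 CPM. In the striata, genes of cortical excitatory neurons took 0.00933, 0.0468, 0.0142 and 0.022 percent of the counts, highest in striatum 2. Tbr1 stood at 5.46, 41.8, 8.13 and 20 CPM there and Slc17a7 at 23.9, 195, 44.4 and 79.2. Choroid plexus was low, with Ttr at 3.71, 1.46, 6.75 and 4.71 CPM. The part of these other cells in the neuronal and vascular differences was not tested. Libraries of the same number came from different mice. Hearts 1 and 2 and striata 3 and 4 carried Xist counts and at most 1 count of 4 Y-linked genes, while hearts 3 and 4 and striata 1 and 2 carried the Y-linked genes and at most 1 Xist count. Each organ thus had 2 libraries of each sex, and sex was balanced between them.

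The large genes were read again in the other 38 libraries, which are of other mice and differ in treatment, genotype or both. In the fit of all 46 libraries, 89.4 to 93.4 percent of the 5741 large genes were large in the same direction in each of the other 5 pairs of groups, where 39.9, 40.1, 40.5, 40.6 and 40.9 percent of all genes tested were large (41.3 percent for the untreated wild type in that fit). In all 5 pairs 4653 genes were (81 percent), and 77 were in none. Mutant hearts without treatment and with PTU had only 3 libraries each. Of the genes named here, Ttr was large in none of the other 5, Gja1 in 2, Myh11 in 2 and Cox4i1 and Hlf in 3. A single gene was large in the opposite direction elsewhere, Tnni1, the slow skeletal and fetal troponin I, which is named because of that value. It had 2, 4, 1 and 2 counts in untreated wild-type hearts and 66, 53, 81 and 64 in the striata (-4.20 ± 0.88). In PTU-treated wild-type hearts it had 729, 143, 71 and 58 counts (2.30 ± 0.43, adjusted p = 8.59e-06), with heart 1 far above the others.

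The 2 sets of large genes also differed in the length of the genes. The median span from start to end was 16.8 kb for genes large towards heart, 34.3 kb for genes large towards striatum and 24.2 kb for all genes tested, over the 98 to 98.9 percent of each set with an annotated length. Genes over 100 kb made up 11, 26.7 and 15.3 percent. These are descriptions of the sets, with no test. Of the large genes, 87.5 and 87.2 percent of the annotated ones were protein-coding, against 94.9 percent of the genes that were not large.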

How the data were processed

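Values were deposited as raw counts of reads for every gene, in a file for each library, made by the authors from their reads; per the submitters' processing notes Bowtie2, HTSeq and the mouse build GRCm39 were used. Per the labels' protocols, libraries were prepared from 1 ug of total RNA with a Lexogen CORRALL V2 kit. The sources used here do not give the strand setting, the annotation release or whether molecular identifiers were used. Counts on opposite strands may thus be shared: 47 of the 185 genes named overlap another gene by at least 50 bases in GENCODE M21, which also gave exon lengths.

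The 5 lines for reads given to no gene (35.8 ± 5.61 percent of reads in heart and 25.1 ± 2.61 in striatum) were left out. Of 57010 genes, 15016 passed filterByExpr (minimum count 10). The 8 libraries were scaled by TMM and fitted in edgeR 4.0.16 (R 4.3.3) with a robust quasi-likelihood F test, two-sided, 1 coefficient for tissue; SE are Wald errors of that fit. The other conditions came from a fit of 46 libraries with 12 groups. DESeq2 1.42.0, other scalings, filters and size limits, mt- genes left out, libraries left out and a replicate block were tried; leaving out hearts 1 and 4 together was chosen after seeing the data. The script was tested on simulated counts. The labels do not say that libraries of a group came from separate animals, so p-values measure only the spread between libraries, which may be technical; in the untreated wild type at least 2 mice per organ are shown by their sex-linked genes.

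The members, the 42 gene lists and the pairs were chosen with earlier results of these data known. Lists are described by counts and medians, with no set test. Genes were named by rule: the 12 largest differences per organ above 100 CPM, the 10 genes with most counts, TH signalling genes, pair members, up to 4 members of each list with the highest level and 4 that went against it, and the genes nearest to equal above 500 CPM; from these the text takes a part. Tnni1, Cd4, Atf3 and Ier2 were named after their values were seen. Some genes counted in the lists and pairs are not reported here by name.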

Additional observations from a re-analysis of the deposited data

Results flagged for a closer look

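Each value below is that of 1 library whose gap to the nearest of the other 3 libraries of its organ, over the range of all 4, was above the limit of Dixon's test for 4 values (0.829). Such gaps were found in 27 of 403 groups of 4 values checked, and chance gives about 1 in 20. Heart 1 stood apart for Ckb (61.3 CPM against 34.5 to 38), Cox4i1 (3333 CPM against 1553 to 1657), Cx3cr1 (3.03 CPM against 4.26 to 4.37), ENSMUSG00000120364 (721 CPM against 504 to 534), Hadha (1169 CPM against 1816 to 1904), Rplp0 (605 CPM against 272 to 325), the adipocyte genes (0.000427 percent of counts against 3.79e-05 to 6.79e-05) and the atrial and conduction genes (0.0313 percent of counts against 0.0141 to 0.0151). Heart 3 stood apart for Acta1 (1291 CPM against 208 to 326), Egr1 (78.5 CPM against 9.86 to 13.1) and the library total (19.5 M counts against 10.5 to 11.8). Heart 4 stood apart for Slc16a10 (18.5 CPM against 22.6 to 22.7), the reads aligned to several places (23.1 percent of all reads against 32.7 to 33.8) and the citric acid cycle genes (1.84 percent of counts against 1.29 to 1.38). Striatum 1 stood apart for Npy (62.2 CPM against 76.6 to 79). Striatum 2 stood apart for Ncor1 (268 CPM against 232 to 238). Striatum 3 stood apart for Hlf (200.3 CPM against 218 to 221) and Hr (28.6 CPM against 10.3 to 13). Striatum 4 stood apart for Aldoc (461 CPM against 323 to 343), Mbnl1 (121 CPM against 138 to 140.5), Mdh2 (237 CPM against 186 to 191), Med1 (38.4 CPM against 44.1 to 44.8), Meg3 (598 CPM against 2411 to 2446), Ndrg2 (429 CPM against 321 to 336), P2ry12 (44.9 CPM against 39.1 to 39.7), Pkm (471 CPM against 358 to 370.1) and the reads of no gene (4.49 percent of all reads against 9.49 to 10.4). Of these gaps 8 were in heart 1, 3 in heart 4 and 9 in striatum 4.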

How the results depend on the processing

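Counts of large genes towards heart were 1638 with total-count scaling, 4455 with no filter on low counts and 1467 at an 8-fold limit, against 2503; towards striatum the count without the filter was 5126, against 3238. Without the filter more genes enter the test (32296). Genes called higher in heart were 3513 with total-count scaling, against 5524. With 1 library left out, 2518 to 2699 and 3281 to 3572 genes were large towards heart and striatum and 5401 to 5774 and 5950 to 6595 were called; 29 to 30 of the 30 pairs stayed past the threshold. The mt- share stayed 17.1 to 25.2 percentage points higher in heart, the haemoglobin share 0.147 to 0.201 and the share of the top 10 genes 20.8 to 27.6, while the number of genes with a count differed by -1967 to -1578. Without any 1 striatum library the exact p of the first 3 was 0.0571, no longer past the threshold of 0.05, and without any 1 heart library it was 0.0286. Large genes seen again were 5453 to 5600 in wild-type PTU, 5492 to 5598 in wild-type PTU+TH and 5554 to 5640 in mutant untreated. They were 5351 to 5482 in mutant PTU and 5327 to 5443 in mutant PTU+TH. Each of these counts is out of the large genes of its own fit, with 1 library left out. Those sets were not the 5741 genes of the main fit, so the counts are not shares of 5741.

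Of 185 genes named, 136 kept their direction and their side of the 4-fold limit in every alternative except the 8-fold limit, 21 changed sign and the other 28 lost or gained the 4-fold call. With RLE size factors, the log2 difference changed sign for Sptbn1 (-0.012). With upper-quartile factors, the log2 difference changed sign for Aplp2 (0.020), Cst3 (0.071), Dbp (0.10), Med1 (0.011), Mef2a (0.12), Mef2d (0.096), Ncoa3 (0.10), Nr1d1 (0.079) and Pdgfra (0.068). With total-count scaling, the log2 difference changed sign for C1qa (-0.37), C1qb (-0.39), Cacnb2 (-0.75), Ebf1 (-0.64), Hr (-0.36), Kcnip2 (-0.66), Malat1 (-0.73), Map4 (-0.51), Mbnl1 (-0.095), Pkm (-0.072), Qki (-0.12) and Sptbn1 (-0.75). Without the filter on low counts, the log2 difference changed sign for Sptbn1 (-0.051). With DESeq2, the log2 difference changed sign for Cacnb2 (-0.00024) and Sptbn1 (-0.056). Without heart replicates 1 and 4 together, the log2 difference changed sign for C1qa (-0.11), Kcnip2 (-0.011), Malat1 (-0.11), Med1 (0.076), Mef2a (0.19), Mef2d (0.081), Ncoa3 (0.20), Nr1d1 (0.19) and Pdgfra (0.14). With 1 library left out, the signs of these genes also changed, with ranges of -0.21 to 0.035 for Aplp2, -0.39 to 0.091 for Cst3, -1.07 to 0.33 for Dbp, -0.30 to 0.37 for Malat1, -0.25 to 0.041 for Med1, -0.093 to 0.11 for Mef2a, -0.11 to 0.10 for Mef2d, -0.20 to 0.19 for Ncoa3, -0.35 to 0.17 for Nr1d1, -0.16 to 0.11 for Pdgfra and -0.14 to 0.28 for Sptbn1. With DESeq2, the 4-fold call was gained for Lhx6 (-2.04) and Thra (-2.05). With the test set against 4-fold (glmTreat), the call was lost for Gja1, Myh11, Slc17a7, mt-Co1, mt-Cytb and mt-Nd4. Without the filter on low counts, the 4-fold call was gained for Lhx6 (-2.04) and Thra (-2.04). With total-count scaling, the 4-fold call was lost for Atp5b (1.96), Camk2d (1.97), Cox4i1 (1.78), Gja1 (1.34), Ier2 (1.81), Kcnj11 (1.76), Ldhb (1.61), Myh11 (1.52), Oxct1 (1.79), Pfkm (1.79), Prox1 (1.69), Rgs5 (1.87), Rps2 (1.74), mt-Co1 (1.43), mt-Cytb (1.54) and mt-Nd4 (1.68). With total-count scaling, the 4-fold call was gained for Lhx6 (-2.77), Mapt (-2.22), Ncoa1 (-2.42) and Thra (-2.72). With upper-quartile factors, the 4-fold call was gained for Aldoa (2.00), Gapdh (2.02), Ndrg2 (2.07), Nebl (2.12) and Slc6a8 (2.10). Without heart replicates 1 and 4 together, the call was lost for Slc17a7 (-2.08, adjusted p = 0.147) and Tbr1 (-10.97, adjusted p = 0.051), by adjusted p and not by size. Slc17a7 also lost it without heart 1 (-2.20, adjusted p = 0.0570) and, by size, without striatum 2 (-1.65). Without heart replicates 1 and 4 together, the 4-fold call was gained for Gapdh (2.21), Nebl (2.19), Ppargc1a (2.04) and Thra (-2.19). A replicate block, in which same-numbered libraries are paired, gave 2466 and 3260 large genes and turned Sptbn1 to -0.080; same-numbered libraries came from different mice and their deviations correlated by -0.215 to -0.0834, so the numbers do not pair them. The cause of these changes was not tested. Depth limits genes with 3 counts or fewer in 1 organ to a bound or a counting interval, and a strand setting was not given.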

Other observations

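Cd4, the T-cell coreceptor, was large towards striatum. It stood at 109, 99.4, 109 and 137 CPM in striata 1 to 4 and 0.632, 0.687, 2.04 and 1.03 in hearts 1 to 4 (log2 difference of -6.57 ± 0.31, adjusted p = 4.64e-10), and it was large in the same direction in 5 of the other 5 pairs of groups. The T-cell genes Cd3e and Cd8a had 2 and 3 counts over the 4 striata and 8 and 7 over the 4 hearts. Dbh, which makes noradrenaline in sympathetic neurons, stood at 11.1, 7.84, 4.98 and 4.1 CPM in the hearts and had 2 counts in the striata. The ependymal gene Ccdc153 had no count in any heart and stood at 4.72, 2.99, 8.28 and 6.57 CPM in the striata.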
